A study of Homo sapiens with 6 samples.

Results

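The genes of prostaglandin synthesis, reception and breakdown were examined in SK-OV3, a cell line of human ovarian cancer, after silencing of the lncRNA PVT1. The 10 genes were taken as the rows of the count table whose symbol equals PLA2G4A, PTGS1, PTGS2, PTGES, PTGES2, PTGES3, PTGIS, PTGER2, PTGER4 or HPGD, and all 10 were found among its 59653 genes. Messenger RNA was sequenced in 6 libraries from SK-OV3 cells labelled wildtype, all collected 48 h after transfection. In 3 of them the cells had received a pool of non-targeting siRNAs (siControl), and in the other 3 a pool of siRNAs against human PVT1 (siPVT1). The design thus holds 1 cell line and 1 pool on each side. No label says that the replicates of a group came from separate cultures, so the p-values measure the spread between these libraries, which may be technical.

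Prostaglandins are lipid signals made on demand from arachidonic acid. A phospholipase releases the acid from membranes, a cyclooxygenase turns it into the unstable intermediate prostaglandin H, and a terminal synthase converts that into prostaglandin E, prostacyclin or another product, which leaves the cell and acts on receptors of the same or nearby cells. In ovarian and other epithelial cancers the inducible cyclooxygenase PTGS2 and prostaglandin E are well known for their links to inflammation, growth and invasion.

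The libraries held between 28383171 and 35059576 counts. Every pair of libraries within a group differed beyond counting noise, so none was merged as the same library. The chi-square per degree of freedom was 1.75 to 5.67 between siControl libraries and 8.62 between siPVT1 replicates 1 and 2, and siPVT1 replicate 3 stood apart from these at 45.3 and 19.6. Levels are given as CPM, the counts scaled to a common library size after TMM normalization, and 3 values in a row are those of replicates 1, 2 and 3 in that order. Fold changes are on the log2 scale, siPVT1 against siControl, with their standard error (SE), and adjusted p-values come from edgeR's quasi-likelihood test over all genes tested. In these libraries 3 counts correspond to between 0.089 and 0.107 CPM. PVT1, the target, was at 105.9, 131.4 and 108.5 CPM in siControl and at 75.5, 67.8 and 66.3 CPM in siPVT1. Each siPVT1 library lay below each siControl library, and the log2 fold change was -0.72 (SE 0.0967, adjusted p = 0.000342). PVT1 thus fell by the adjusted p-value but missed the log2 change of 1 needed for a call, as it also did in every fit without 1 library. Markers of an epithelial line (KRT8, KRT18, KRT7, EPCAM, CDH1, PAX8, WT1, MUC16, ERBB2 and MSLN) summed to between 866 and 972 CPM in siControl and between 1040 and 1130 CPM in siPVT1, a sum carried by the keratins. Within this list MSLN was called higher (log2 fold change 2.94) and WT1 lower (-1.01), and in siPVT1 replicate 3 CDH1 had 0 counts and MUC16 had 19, against 12 and 43 counts of CDH1 and 179 and 581 counts of MUC16 in siPVT1 replicates 1 and 2. Of the leukocyte markers PTPRC, CD3E, CD14 and CD68, PTPRC had at most 2 counts in any library and CD3E had 0, and the sum over the list was 17.8 to 19.8 CPM in siControl and 18.7 to 28.7 CPM in siPVT1, nearly all of it CD68. CD14 was called lower, from at most 10 counts in a library (log2 fold change -1.43, adjusted p = 0.0241). The endothelial markers PECAM1, CDH5 and VWF were all higher in siPVT1 (65.7 to 66.6 CPM in sum in siControl, 277 to 350 CPM in siPVT1). Nearly all of that sum was CDH5, with a mean of 64.2 CPM in siControl and 299 CPM in siPVT1. Of the fibroblast markers COL1A1, COL1A2, DCN and PDGFRB, COL1A1 and PDGFRB were higher, and the sum went from between 6.30 and 6.68 CPM to between 25.6 and 26.5 CPM. COL1A2 had 4 counts in siControl and 9 in siPVT1 and was not tested, and DCN had 1 count in each group. The part of these markers in the results that follow was not tested. The 5.8S rRNA row stood at 793 counts in siControl replicate 2 and at 28 to 171 in the other libraries.

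The largest changes among the prostaglandin genes were in the inducible enzymes. PTGS2, the inducible cyclooxygenase, rose 18.4-fold in mean CPM and PTGES, the inducible microsomal prostaglandin E synthase, rose 63.9-fold, from a level close to the counting limit. PTGER2, a receptor for prostaglandin E2, rose 8.92-fold at a low level. PTGES2, a constitutive synthase, fell to 0.514 of its siControl mean. Of the 10 genes, 9 had enough counts to be tested and HPGD did not. By edgeR's test, 5 of the 9 were higher in siPVT1 past both thresholds of a call (adjusted p under 0.05, log2 change of 1 or more in size), against 11.8% of the 19008 genes tested, and 0 were lower, against 9.64%. By the adjusted p-value alone, 6 of the 9 were higher, against 29.5% of all genes, and 1 was lower, against 28.4%. Their median log2 fold change was 1.10, and that of all genes tested was 0.0014. In 7 of the 9 genes the 3 siPVT1 libraries lay on one side of the 3 siControl libraries, where 65.6% of all genes tested did. PTGES, PTGIS and PTGER2 were under 5 normalized counts in at least 1 siControl library and passed the count filter only through siPVT1. The 10 genes were also chosen with earlier results of these data known. The counts are thus a description of these genes and not a test of them as a set. Without siPVT1 replicate 3 the same 5 genes were called higher and 0 lower. As these are bulk RNA samples, fewer or more cells that use a gene and less or more RNA per cell cannot be told apart.

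**Figure D1:**
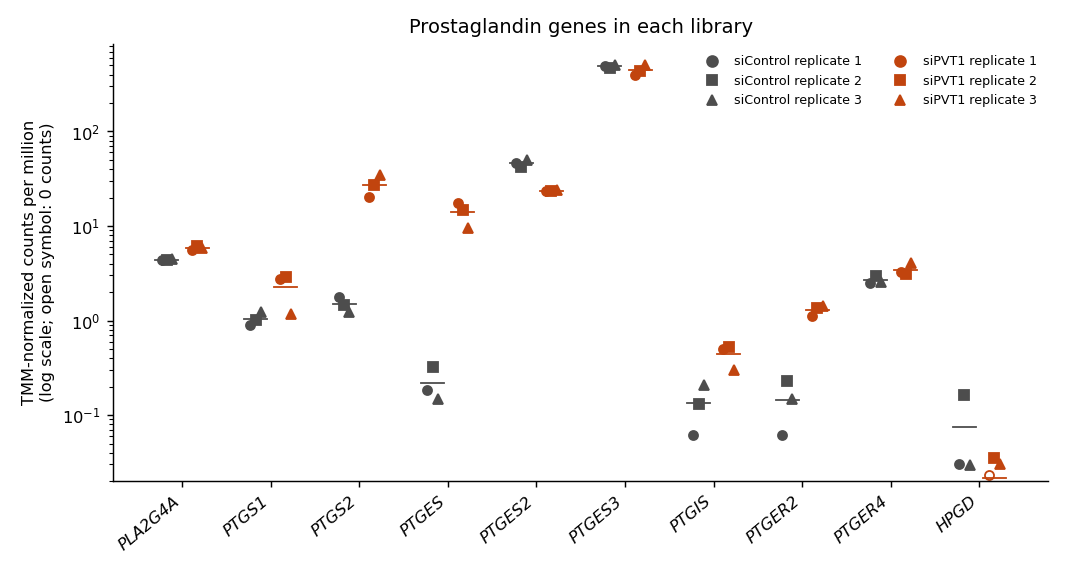
TMM-normalized CPM (log axis) of the 10 prostaglandin genes, ordered from release to breakdown, in the 3 siControl (grey) and 3 siPVT1 (orange) libraries; symbols mark the replicate number, lines the group means and the open symbol a library with 0 counts. PTGS2, PTGES and PTGER2 show the widest gaps between the groups, PTGES2 is lower in every siPVT1 library, and the PTGS1 groups overlap.

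**Figure D2:**
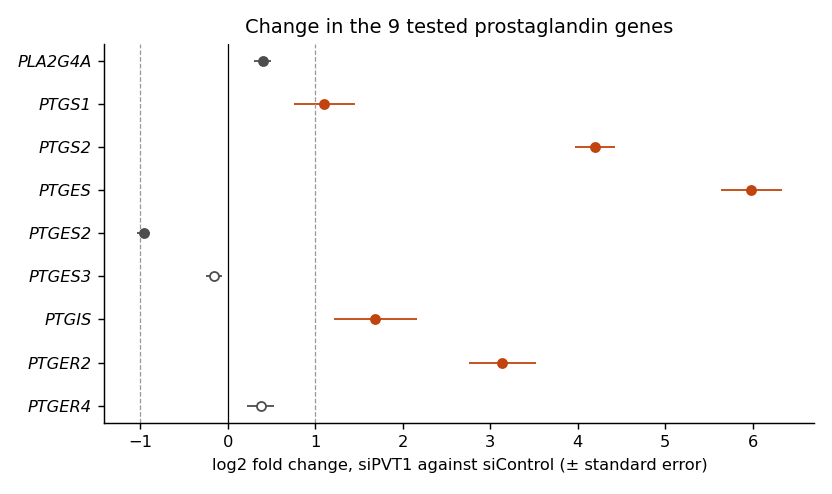
Log2 fold change of siPVT1 against siControl with its standard error for the 9 genes tested, with dashed lines at a log2 fold change of 1 in either direction. Orange marks the 5 genes higher past both thresholds, filled grey an adjusted p-value under 0.05 below the fold threshold (PLA2G4A and PTGES2) and open grey neither (PTGES3 and PTGER4).

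PLA2G4A encodes the cytosolic phospholipase A2 that releases arachidonic acid. Its level was 4.41, 4.35 and 4.51 CPM in siControl and 5.55, 6.14 and 5.83 CPM in siPVT1. The groups did not overlap, and the rise was small, with a log2 fold change of 0.40 (SE 0.101, adjusted p = 0.00918). With scaling by the total count alone the adjusted p was 0.0598, and each fit without 1 library kept it under 0.05. PLA2G4A is a neighbour of PTGS2 on chromosome 1. In GENCODE v44 on GRCh38, PTGS2 (ENSG00000073756, minus strand) lies from 186671791 to 186680922 and PLA2G4A (ENSG00000116711, plus strand) from 186828949 to 186988981, a gap of 148 kilobases. The only other annotated gene there is PACERR, a lncRNA on the opposite strand that overlaps the 5′ end of PTGS2, from 186680601 to 186683165. PACERR had 0, 0 and 1 counts in siControl and 3, 2 and 2 counts in siPVT1, too few to be tested. Whether the counting used strand is not given in the sources used here, so reads in the overlap cannot be assigned to either gene with certainty.

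The cyclooxygenases PTGS1 and PTGS2 catalyse the same committed step, PTGS1 as the constitutive and PTGS2 as the inducible form. PTGS2 was at 1.77, 1.46 and 1.22 CPM in siControl and at 20.4, 27.2 and 34.2 CPM in siPVT1. The lowest siPVT1 library was far above the highest siControl library (p = 0.1 in a two-sided exact permutation test, which cannot go lower with 3 libraries a group). The log2 fold change was 4.20 (SE 0.23, adjusted p = 3.88e-06), and it stayed between 3.99 and 4.36 when each library was left out in turn. Behind these levels stood 144 counts in siControl and 2480 in siPVT1, whose ratio after scaling was 18.7 (95% exact interval 15.8 to 22.3, counting error only).

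The change in PTGS1 was less clear. Its level was 0.887, 1.01 and 1.25 CPM in siControl and 2.75, 2.88 and 1.18 CPM in siPVT1. Replicate 3 of siPVT1 lay within the siControl range, and the other siPVT1 libraries lay above it. Its log2 fold change was 1.10 (SE 0.347, adjusted p = 0.0248), just past the fold threshold. That call held in only 2 of the 6 fits without 1 library. The adjusted p became 0.0847 without siControl replicate 1, 0.0764 without siControl replicate 2, 0.072 without siPVT1 replicate 1 and 0.1 without siPVT1 replicate 2. Without siPVT1 replicate 3 it was 0.000256, with a log2 fold change of 1.41. By median transcript length, both cyclooxygenase genes were low in siControl (0.528 ± 0.092 CPM per kilobase for PTGS1 and 0.362 ± 0.068 for PTGS2, SD, n = 3 each), and in siPVT1 PTGS2 was at 6.66 ± 1.7 and PTGS1 at 1.14 ± 0.48 CPM per kilobase (SD, n = 3 each). Their order in siControl depended on the length used, since by the longest transcript PTGS1 was at 0.208 and PTGS2 at 0.315 CPM per kilobase. In siPVT1 PTGS2 was the higher by either length (5.79 against 0.452 by the longest).

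The sequence in front of the PTGS2 start is shown because this is the cyclooxygenase with the largest change. RefSeq promoter entries matched 9 of the 10 genes, with 13 start sites in all, and a window of 250 bases before each start was searched on both strands for short motifs. The PTGS2 window is chr1:186680424-186680673 on the minus strand of GRCh38.p14, 5′ to 3′. Capitals mark matches to an NF-kB-like pattern (GGGNNNNNCC, 4 overlapping matches merged), a C/EBP pattern (TTGCNNAA, on the opposite strand), a CRE half-site (TGACG, on the opposite strand) and a TATA box (TATAAA).
PTGS2: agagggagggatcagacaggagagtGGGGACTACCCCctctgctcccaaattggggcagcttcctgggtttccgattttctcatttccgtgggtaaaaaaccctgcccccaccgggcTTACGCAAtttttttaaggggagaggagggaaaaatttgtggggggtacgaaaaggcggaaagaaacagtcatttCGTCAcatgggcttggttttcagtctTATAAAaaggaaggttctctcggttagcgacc
Among 35116 RefSeq windows of this length, 54.4% held the NF-kB-like pattern, 9.05% the C/EBP pattern, 21.2% the CRE half-site and 10.7% the TATA box. The TATA box lay from 32 to 27 bases before the start, and the CRE half-site from 58 to 54 bases before it. The window held no match to the other motifs searched, which were ACGTG, the HIF core (18.5% of windows), TGANTCA of AP-1 (6.57%), GCGTGGGCG of EGR (0.72%) and the GC box GGGCGG (42.6%). A match of letters is a description of the window and says nothing of a factor bound there.

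The terminal synthases moved in different directions. PTGES was nearly absent from siControl and clearly present in siPVT1. The table holds 6, 10 and 5 counts in siControl and 494, 423 and 312 counts in siPVT1, or 0.184, 0.325 and 0.148 CPM against 17.7, 14.9 and 9.42 CPM. Every siPVT1 library was far above every siControl library. The log2 fold change was 5.98 (SE 0.351, adjusted p = 5.36e-06), the largest of the 9 genes tested, and lay between 5.76 and 6.36 without 1 library. Because siControl held only 21 counts in all, the size of the fold is known less well than its direction, and the ratio of summed counts after scaling was 63.5 (95% exact interval 41.4 to 103). Among siPVT1 libraries the spread of PTGES ran against that of PTGS2. Replicate 1 had the most PTGES and the least PTGS2, and replicate 3 the least PTGES and the most PTGS2.

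PTGES lies on chromosome 9 from 129738331 to 129753042 (minus strand, ENSG00000148344). Its window of 250 bases, chr9:129753043-129753292 on the minus strand of GRCh38.p14, is shown because this gene had the largest fold change. Capitals mark an EGR pattern (GCGTGGGCG) and the NF-kB-like pattern on the opposite strand.
PTGES: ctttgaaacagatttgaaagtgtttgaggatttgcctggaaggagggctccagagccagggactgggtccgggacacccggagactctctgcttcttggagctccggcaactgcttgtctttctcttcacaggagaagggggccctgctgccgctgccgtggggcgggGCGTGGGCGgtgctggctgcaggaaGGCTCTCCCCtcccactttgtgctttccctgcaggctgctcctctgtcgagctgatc
The EGR pattern was found in 0.72% of the 35116 windows, and among the 13 windows of these genes it was found in 2, that of PTGES and a second start of PTGES2. It overlaps a GC box (GGGCGG), which 42.6% of all windows and 10 of the 13 held. The NF-kB-like pattern was also found in 10 of the 13 windows, against 54.4% of all windows. They included windows of PTGES2, which fell, of PTGES3 and PTGER4, which were not called, and of HPGD, which was not tested. The windows of the other PTGES2 starts held no match to the EGR pattern, and which start the cells used was not measured. The part of either pattern in the changes of PTGES and PTGES2 was not tested.

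PTGES2 encodes a constitutive, membrane-associated prostaglandin E synthase. It was at 46.4, 42.0 and 49.6 CPM in siControl and at 23.7, 23.5 and 23.9 CPM in siPVT1. The siPVT1 libraries were nearly identical (coefficient of variation 0.844%) and lay below all siControl libraries. Its log2 fold change was -0.96 (SE 0.0781, adjusted p = 2.5e-05). PTGES2 therefore fell by the adjusted p-value but missed the fold threshold by a small margin, which it crossed with scaling by the total count (-1.11) and without siControl replicate 2 (-1.02). PTGES2-AS1, a lncRNA that begins just beyond the 5′ end of PTGES2 on the other strand, rose, from 0.37 ± 0.0572 to 0.801 ± 0.222 CPM (SD, n = 3 each), with a log2 fold change of 1.10 (SE 0.311, adjusted p = 0.0158). In GENCODE v44 the genes do not overlap, since PTGES2 reaches to 128128462 and PTGES2-AS1 starts at 128128529. Whether they overlap in the authors' earlier release, and so could share reads, was not checked. The summed counts of PTGES2-AS1 were 36 in siControl and 71 in siPVT1, against 4482 and 2119 for PTGES2.

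PTGES3, or p23, is a cytosolic prostaglandin E synthase that is better known as a cochaperone of HSP90. Its level was 498.5, 468 and 510 CPM in siControl and 391, 431 and 503 CPM in siPVT1. The groups overlapped, since siPVT1 replicate 3 lay within the siControl range. The log2 fold change was -0.15 (SE 0.0928, adjusted p = 0.187), which did not pass the test. With scaling by the total count, which moved the median of all genes to -0.148, the value was -0.30 (adjusted p = 0.0173), and without siPVT1 replicate 3 it was -0.27 (adjusted p = 0.0018). The processed pseudogene PTGES3P1, which resembles the mRNA of PTGES3, had 254 counts in siControl and 255 in siPVT1, against 47893 and 39898 for PTGES3. PTGES3P3 had 11 and 7 counts, and PTGES3P2, PTGES3P4 and PTGES3P5 had 0. PTGES3L, a related gene on chromosome 17, had 7, 10 and 8 counts in siControl and 17, 18 and 16 counts in siPVT1 and rose, with a log2 fold change of 1.14 (SE 0.314, adjusted p = 0.0142).

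PTGIS encodes prostacyclin synthase, the other terminal synthase examined. It had 2, 4 and 7 counts in siControl and 14, 15 and 10 counts in siPVT1, so that it stayed near the counting limit in both groups although the groups did not overlap. Its log2 fold change was 1.69 (SE 0.476, adjusted p = 0.0155). With summed counts of 13 and 39 the scaled ratio was 3.26 (95% exact interval 1.70 to 6.65). The call was lost without siControl replicate 1 (adjusted p = 0.0511) and without siPVT1 replicate 2 (adjusted p = 0.057).

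PTGIS lies on chromosome 20 from 49503874 to 49568137, PTGES3 on chromosome 12 from 56663341 to 56688408, and PTGES2 and PTGS1, like PTGES, on chromosome 9, from 128120693 to 128128462 and from 122370530 to 122395703.

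The receptors of prostaglandin E2 are encoded by PTGER1 to PTGER4. PTGER2 and PTGER4 couple to stimulation of cyclic AMP. PTGER2 had 2, 7 and 5 counts in siControl and 31, 39 and 47 counts in siPVT1. All siPVT1 libraries were above all siControl libraries, with a log2 fold change of 3.14 (SE 0.382, adjusted p = 0.000204) that lay between 2.77 and 3.58 without 1 library. From 14 counts in siControl and 117 in siPVT1, the scaled ratio was 9.07 (95% exact interval 5.19 to 17.1). The receptor rose from a level of 0.146 ± 0.083 CPM to 1.30 ± 0.166 CPM (SD, n = 3 each).

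PTGER2 lies on chromosome 14 from 52314305 to 52328598 and PTGER4 on chromosome 5 from 40679915 to 40693735. PTGER4 was at 2.48, 2.95 and 2.58 CPM in siControl and at 3.29, 3.09 and 4.01 CPM in siPVT1. The groups did not overlap, and the gap between the nearest libraries was small. The log2 fold change of 0.38 (SE 0.155) had an adjusted p of 0.0669 and was not called, and no fit without 1 library brought it under 0.05 (lowest 0.0628).

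PTGER1 and PTGER3, the remaining receptors of prostaglandin E2, were in the list of further pathway genes. PTGER3, which lowers cyclic AMP, had 27, 34 and 31 counts in siControl and 2 counts in each siPVT1 library. It was the only gene of that list to fall past both thresholds, with a log2 fold change of -3.75 (SE 0.349, adjusted p = 4.99e-05). The scaled ratio of its summed counts, 92 and 6, was 0.0708 (95% exact interval 0.0253 to 0.16). PTGER1, which couples to calcium, had 8, 4 and 6 counts in siControl and 21, 13 and 14 in siPVT1, a log2 fold change of 1.53 (SE 0.398, adjusted p = 0.0109). PTGER1 was under 5 normalized counts in siControl replicate 2, and PTGER3 was under 5 in every siPVT1 library. Each thus passed the count filter only through the group where it was high. PTGER2 rose and PTGER3 fell, and their order per length changed with them. By median transcript length the order in siControl was PTGER4 (4.77 ± 0.45 CPM per kilobase), PTGER3 (0.494 ± 0.073), PTGER1 (0.13 ± 0.041) and PTGER2 (0.0939 ± 0.054), the last pair within their SDs (n = 3 each). In siPVT1 it was PTGER4 (6.19 ± 0.87), PTGER2 (0.838 ± 0.11), PTGER1 (0.385 ± 0.13) and PTGER3 (0.0351 ± 0.0032). With the longest transcript in place of the median, PTGER3 (0.122) and PTGER1 (0.13) were level in siControl, and the order in siPVT1 was the same.

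**Figure D3:**
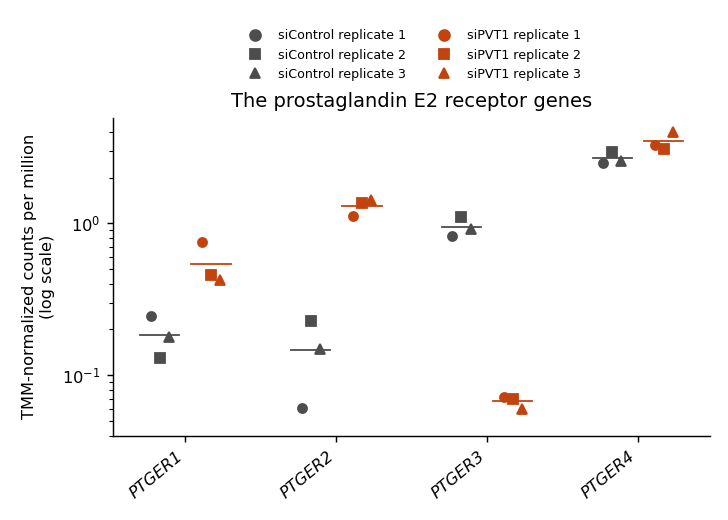
TMM-normalized CPM (log axis) of the 4 prostaglandin E2 receptor genes in each library, with symbols for the replicate number, lines for group means, grey for siControl and orange for siPVT1. PTGER2 is higher and PTGER3 lower in every siPVT1 library, and PTGER4 has the highest CPM in both groups.

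The window of 250 bases before the start of PTGER2, chr14:52314062-52314311 on the plus strand of GRCh38.p14, is given since PTGER2 is the receptor among the 10 genes that passed both thresholds. Capitals mark a CRE half-site (TGACG) and GC boxes (GGGCGG, on either strand), and the 5 matches to the NF-kB-like pattern, 3 of them overlapping a GC box, are not marked.
PTGER2: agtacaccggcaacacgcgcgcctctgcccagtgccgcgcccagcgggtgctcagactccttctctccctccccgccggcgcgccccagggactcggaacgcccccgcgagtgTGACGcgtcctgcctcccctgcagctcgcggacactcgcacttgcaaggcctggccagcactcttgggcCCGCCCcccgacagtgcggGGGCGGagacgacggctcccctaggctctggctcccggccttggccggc
Its GC content was 74%, against 50.4% for the PTGS2 window and 61.2% for the PTGES window, and it held no match to the TATA box, the C/EBP pattern or the EGR pattern. The CRE half-site was found in 4 of the 13 windows of these genes, against 21.2% of all windows. They were the windows of PTGS2, PTGER2 and PTGES3 and that of a second start of HPGD. PTGES3 was not called and HPGD was not tested.

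HPGD encodes 15-hydroxyprostaglandin dehydrogenase, the main enzyme that inactivates prostaglandins. It had 1, 5 and 1 counts in siControl and 0, 1 and 1 counts in siPVT1, and it was not tested. From 7 and 2 counts, the scaled ratio was 0.31 with a 95% exact interval of 0.0314 to 1.63, so a difference was not detectable at this depth. HPGD, on chromosome 4 from 174490175 to 174523154, was thus near the counting limit with either siRNA pool.

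Per length, PTGES3 and PTGES2 led in siControl (318 ± 14 and 27.6 ± 2.3 CPM per kilobase, SD, n = 3 each), followed by PTGER4, PLA2G4A at 2.37 ± 0.044, PTGS1 and PTGS2. PTGES (0.121 ± 0.052), PTGER2, HPGD (0.0669 ± 0.069) and PTGIS (0.0385 ± 0.021) formed the low end. Neighbours among these low genes did not differ beyond their SDs, while PTGES lay below PTGS2 (0.362 ± 0.068). In siPVT1, PTGES3 (286 ± 37) and PTGES2 (14.2 ± 0.12) were again highest, and PTGES (7.73 ± 2.3), PTGS2 and PTGER4 came next at levels within each other's SDs. PTGES and PTGS2 thus passed PLA2G4A, and by their means also PTGER4. By the longest transcript, PTGES (7.48) also stood above PTGES2 (6.81) in siPVT1, and PTGER4 was lower, at 0.778 CPM per kilobase in siControl and 1.01 in siPVT1, below PLA2G4A at 1.54 and 2.03.

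**Figure D4:**
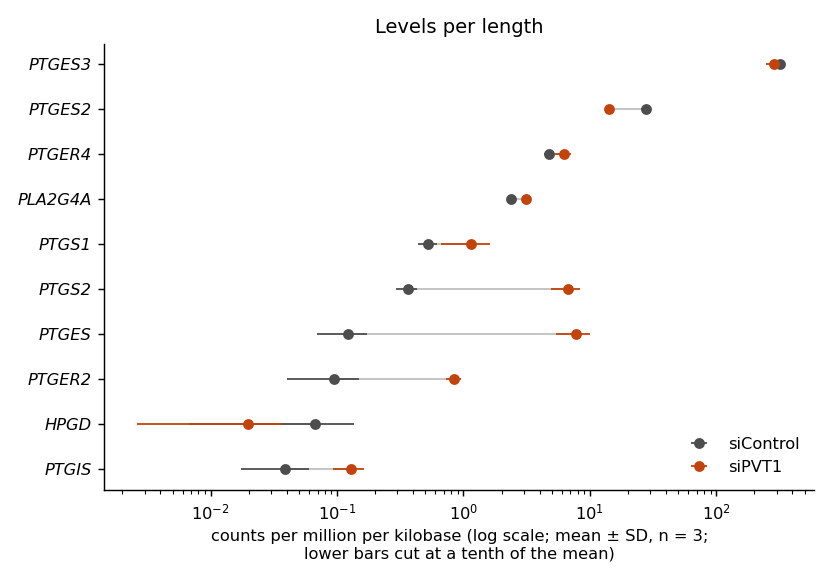
Level of each of the 10 genes per kilobase of median transcript length (CPM per kilobase, log axis, mean ± SD, n = 3, a lower bar that would pass 0 is cut short) in siControl (grey) and siPVT1 (orange), ordered by siControl. PTGS2 goes from 0.362 to 6.66 and PTGES from 0.121 to 7.73, and PTGES3 stays highest in both groups.

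A wider list of 23 prostanoid genes (other receptors, synthases, breakdown enzymes, transporters and phospholipases) was read for comparison, of which 18 had enough counts to be tested. Only PTGER1 was higher and only PTGER3 lower past both thresholds, and the median log2 fold change of the list was 0.095. Each call was 5.56% of the 18, against 11.8% higher and 9.64% lower among all genes tested. By the adjusted p-value alone, 4 of the 18 were higher and 4 lower, against 29.5% and 28.4% of all genes tested. Apart from PTGER1, the higher genes were PTGIR, the prostacyclin receptor (log2 fold change 0.69, SE 0.137), TBXA2R, the thromboxane receptor (0.75, SE 0.207), and PRXL2B, a prostaglandin F synthase (0.67, SE 0.0959). The lower genes besides PTGER3 were AKR1C3, a further prostaglandin F synthase (-0.79, SE 0.0775), and the prostaglandin reductases PTGR1 (-0.98, SE 0.0635) and PTGR3 (-0.49, SE 0.112). In this list PTGDR, HPGDS and PLA2G2A had 0 counts in every library, which allows at most 0.107 CPM in any of them, and PTGDR2 and PTGDS were too low to be tested. The prostaglandin transporters ABCC4, an exporter, and SLCO2A1, an importer, had adjusted p-values of 0.328 and 0.22. PLA2G4B, a further cytosolic phospholipase A2, had a log2 fold change of -0.51 (adjusted p = 0.12) and the read-through gene JMJD7-PLA2G4B, which overlaps it, rose by 1.27 (SE 0.154, adjusted p = 0.000202). Since reads can be shared, their division between both is uncertain.

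The lipoxygenase and leukotriene genes use the same arachidonic acid. Of 12 in the list, 5 were tested. Past both thresholds 1 of the 5 (20%) was higher and 0 were lower, against 11.8% and 9.64% of all genes tested. By the adjusted p-value alone 3 of the 5 were higher and 0 lower, against 29.5% and 28.4% of all genes tested. ALOX5, which makes leukotrienes, had 2, 3 and 5 counts in siControl and 21, 11 and 7 counts in siPVT1, a log2 fold change of 2.07 (SE 0.597, adjusted p = 0.0174), and 3 of the 6 fits without 1 library kept that call (it was lost without siControl replicate 1, without siControl replicate 2 and without siPVT1 replicate 1, with a highest adjusted p of 0.0638). ALOX5AP, the partner protein of ALOX5, rose by 0.35 (SE 0.1, adjusted p = 0.0166) and LTA4H, which forms leukotriene B, by 0.53 (SE 0.0669, adjusted p = 0.000257), both log2 fold changes. The leukotriene B receptors LTB4R and LTB4R2 had adjusted p-values of 0.55 and 0.764. The median of the 5 was 0.35. ALOX5 was under 5 normalized counts in every siControl library and passed the count filter only through siPVT1.

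**Figure D5:**
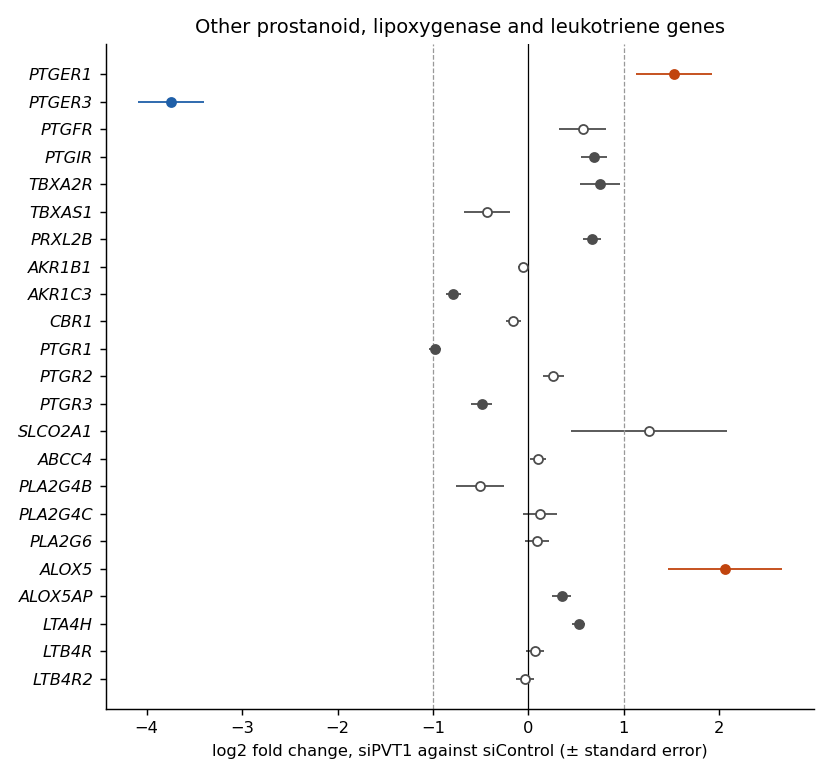
Log2 fold change of siPVT1 against siControl with its standard error for the 18 further prostanoid genes and the 5 lipoxygenase and leukotriene genes tested. Orange and blue mark genes past both thresholds (PTGER1 and ALOX5 higher, PTGER3 lower), filled grey an adjusted p-value under 0.05 alone and open grey neither, with dashed lines at a log2 fold change of 1 in either direction.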

How the data were processed

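The data were 3 siControl and 3 siPVT1 mRNA libraries of SK-OV3 cells. The authors aligned single-end reads to GENCODE transcripts of GRCh38 with STAR and quantified them with Salmon, and the deposited table gives these estimated counts by gene symbol, as integers and without normalization. The submitters' processing notes list STAR 2.7.3a and Salmon 0.14.1, and the strand setting is not given in the sources used here. Every column matched a sample description. Replicate numbers came from the sample titles. The 10 genes, the lists of further genes and the motifs were chosen with earlier results of these data known. The genes named are the 10, PVT1, genes of the 2 further lists past both thresholds, genes that could share reads, the 3 most like PTGS2, and marker genes. Other genes of the lists were named after their values were seen. PTGR3 is listed under its older symbol ZADH2.

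Counts were used as deposited in edgeR 4.0.16 (R 4.3.3), with TMM normalization, an intercept and the siRNA as terms, and the quasi-likelihood test. A gene was kept when 3 or more libraries had 5 or more normalized counts (19008 genes), and p-values were adjusted over all of them by Benjamini-Hochberg. A call needed an adjusted p under 0.05 and a log2 change of 1 or more in either direction, as the study set them. The SE is the size of the log2 change over the square root of the F statistic. Intervals of ratios of summed counts are exact (Clopper-Pearson, 95%), scaled by normalized library size, and cover counting error only. Transcript lengths and positions came from GENCODE v44, a later release than the authors', and promoter windows from RefSeq. Some of the fits were tried on simulated data with few changed genes and the same dispersion for every gene. These libraries differ from that, so the simulation does not give the error rates of the calls made here. As alternatives, DESeq2 1.42.0, edgeR with DESeq2's kind of size factors, total-count scaling, no filter, filterByExpr, a replicate block, a test against a 2-fold change, each library left out, and the longest transcript were tried.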

Additional observations from a re-analysis of the deposited data

How the results depend on the processing

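PTGS2, PTGES and PTGER2 were called in every alternative fit, and no value for PVT1 or the 9 genes tested changed its sign. The calls for PTGS1, PTGIS and PTGES2 depended on the setting. With scaling by the total count, PTGS1 had a log2 fold change of 0.96 and was not called, PTGES2 had -1.11 and was called, 1 of the 10 genes was called lower in place of 0, and 2 further prostanoid genes (PTGER3 and PTGR1) were called lower in place of 1. The test against a 2-fold change called neither PTGS1 (1.10) nor PTGIS (1.69), which left 3 of the 10 genes higher, 0 further prostanoid genes and 0 lipoxygenase genes higher, and 1184 higher and 792 lower genes among all tested. The adjusted p-value alone gave 1 of the 10 genes as lower. filterByExpr removed PTGIS and gave 0 of the 4 lipoxygenase genes it kept as higher, and no filter gave 1 as lower (ALOX12B). Without 1 library at a time, the log2 fold change lay between 0.88 and 1.41 for PTGS1, between -1.02 and -0.91 for PTGES2 and between 1.34 and 2.16 for PTGIS, between 3 and 5 of the 10 genes were higher and between 0 and 1 lower, between 1 and 2 further prostanoid genes were higher and between 1 and 2 lower, and between 0 and 1 lipoxygenase genes were higher. Leaving out siControl replicate 1 or siPVT1 replicate 2 left 3 of the 10 genes higher. PTGES2 was called lower without siControl replicate 2, SLCO2A1 higher without siPVT1 replicate 3, and PTGR1 lower when either of those libraries was left out. The cause was not tested. Replicate numbers are shared by the groups, but same-numbered libraries did not deviate together (correlations of -0.041, 0.038 and 0.0037), so the numbers were not taken to pair them. With the number as a block, PTGS2 had a log2 fold change of 4.17, PTGES 5.98, PTGER2 3.17, PTGIS 1.69 and PTGS1 1.04, 5 genes were higher, and no call among the 10 changed. At this depth PTGIS, HPGD, PTGER1, ALOX5 and, in siControl, PTGES and PTGER2 rest on few counts.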

Other observations

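Related genes outside the lists were picked after their values were seen. ALOXE3, an epidermal lipoxygenase, was at 9.19 ± 0.288 CPM in siControl and 2.05 ± 0.264 CPM in siPVT1 (SD, n = 3 each). The log2 change was -2.17 (SE 0.123, edgeR adjusted p = 4.63e-06), with 3 of 3 siPVT1 libraries below all siControl libraries. PLA2R1, the receptor of secreted phospholipases A2, was at 4.41 ± 0.198 CPM in siControl and 11.2 ± 1.16 CPM in siPVT1 (SD, n = 3 each). Here the log2 change was 1.34 (SE 0.111, edgeR adjusted p = 2.66e-05), with 3 of 3 siPVT1 libraries above. PTGS2 had the smallest p of the 10 prostaglandin genes, and the genes whose log2 CPM followed it most closely over the 6 libraries were DCDC2, MED30 and PTMS (Pearson r from 0.99937 to 0.99954). The 6 libraries fall into the 2 siRNA groups, and 2534 of 19007 genes had a correlation with PTGS2 above 0.95.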
